A study of Mus musculus with 4 samples.

Results

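The cells described here are mesenchymal cells of Zone II, the AVN/His region, that carried transcripts of both Sox9, a transcription factor of cushion mesenchyme and cartilage, and Postn, the matrix protein periostin, and that carried no Tcf21, a transcription factor of cardiac fibroblasts. They numbered 672 of the 5645 cells kept in Zone II (11.9%, exact 95% binomial interval 11.1 to 12.8%) and of 21035 cells kept in all 4 libraries, which held 22805 barcodes. A kept cell had at least 500 genes, and a member also had a muscle score under 1.5, at least 1 Sox9 UMI, at least 2 Postn UMIs, no Tcf21 or Sox10 UMI, and UMIs of fewer than 3 of 7 endothelial genes. UMIs, unique molecular identifiers, are the counted transcript tags, and the muscle score is the mean of the natural log of 1 plus UMIs per 10000 over 5 sarcomere and calcium release genes.

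The study dissected 4 heart regions of wild-type CD1 mouse embryos at embryonic day 16.5, with no treatment, and each gave 1 single-cell library: Zone II, which holds the atrioventricular node and His bundle, Zone I, which holds the sinoatrial node, and Zone III left and Zone III right, the bundle branch and Purkinje fiber regions of the left and right ventricle. The labels give no sex and do not say how many embryos were pooled or whether the libraries came from separate animals, so every p-value below measures the spread between these libraries, which may be technical. Only Zone II supplied the members, and therefore no test can set Zone II against another region.

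The atrioventricular valves grow out of the endocardial cushions, swellings of matrix that are filled with mesenchyme when endocardial cells, the inner lining of the heart, lose their contacts and move in. Sox9 acts in these cushion cells and in cartilage, and the developing leaflets lay down proteoglycans, fibrillar collagens and elastic fibers. The tissue around the atrioventricular node adjoins these leaflets, so a dissection of the region can carry valve cells with it.

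The rule set the levels of Sox9 and Postn, which are therefore given only as a description. Sox9 ranged over 1 to 15 UMIs per member with a median of 2, and 201 members held a single UMI of it. Postn ranged over 2 to 114 UMIs with a median of 15, and 39 members stood at its minimum. In the same library, 69 cells chosen by macrophage genes, which should lack both transcripts, held a Sox9 UMI in 11.6% and a Postn UMI in 15.9% of cells, at a median of 7107 UMIs per cell against 6281.5 in the members. Some cells that should lack Sox9 thus held a UMI of it. Sox9 is on chromosome 11 from 112782210 to 112787757 and Postn on chromosome 3 from 54359267 to 54391041 of GRCm38.

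Of the 5645 cells, 2829 had a muscle score under 1.5, 1983 of these also had 2 Postn UMIs, and 1387 also had Sox9. Tcf21 then removed 702 cells, the endothelial genes 13 more and Sox10 none. On either side of the Sox9 threshold, the levels of genes that the rule did not read were compared without a test. Scx, a tendon and valve transcription factor, stood at 130 CPM (UMI counts of a sum of cells scaled to a common total) in members with 1 Sox9 UMI, 126 CPM in members with 2 or more, and 75.9 CPM in the 243 cells that met all else but had no Sox9. Vcan, the proteoglycan versican, stood at 402, 502 and 270 CPM in the same sets. The 693 cells kept out by Tcf21 alone had 24.8 CPM of Scx and 2852 CPM of Col3a1. Members with a single Sox9 UMI were thus close to the other members in Scx, the cells without Sox9 lay between, and the cells with Tcf21 lay farthest away.

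The label was checked on 10 valve markers that the rule did not use. In Zone II, 8 of the 10 were higher in members than in 282 Tcf21 fibroblasts, which held no Sox9 UMI. Of the 8, 7 were at least 2-fold higher, a step that 4.92% of all detected genes reached: Twist1, Scx, Vcan, Hapln1, Prrx2, Tbx20 and Has2. Col1a1 and Col3a1, chains of the interstitial collagens, had 1971 and 1595 CPM in members against 3091 and 3348 CPM in fibroblasts. At least 3 of the 8 markers other than these collagens were detected in 84.5% of members, 39.4% of fibroblasts and 34.0% of 103 endocardial cells. After every cell was thinned to 2500 UMIs the shares were 49.6%, 12.1% and 2.91%. The label therefore held for the members as a whole in Zone II, with the exception of 1 group of 81 cells described further on.

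The same rule found far fewer cells elsewhere: 82 in Zone I (1.38%, 1.10 to 1.71%), 41 in Zone III left (0.804%, 0.578 to 1.09%) and 43 in Zone III right (0.987%, 0.715 to 1.33%). In these libraries the label held less well. At least 3 of the 8 markers were detected in 25.6% of the cells in Zone I, 53.7% in Zone III left and 41.9% in Zone III right, and after thinning in 6.10%, 22.0% and 4.65%. The 20 genes that led the Zone II members had a median level of 142 CPM there, with 17.7, 45.3 and 8.42 CPM in the cells of the rule in Zone I, Zone III left and Zone III right. Fibroblasts had medians of 24.9 CPM in Zone II and 15.8, 4.25 and 2.72 CPM in those libraries. All 20 genes were higher than in fibroblasts in Zone II, and 11, 19 and 14 were in the other libraries. Those 20 were chosen by their ratio to other Zone II cells, so the place of Zone II was largely set by that choice. A share over all genes is not given beside these counts. Among the other libraries, Zone III left came nearest to Zone II in these genes. In Zone I the cells of the rule had nearly the median of fibroblasts in them. Summed over 10 pericyte genes, they had 359 CPM in Zone II and 958, 1494 and 2546 CPM in Zone I, Zone III left and Zone III right, against 918, 850, 1703 and 2393 CPM in fibroblasts. Vtn of this list was at 0 in Zone I and Zone III left, and apart from leaving out 1 cluster of members the part of these genes in the results below was not tested. The cells outside Zone II are called by the rule and not by a cell type.

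Members and fibroblasts were close in depth and in cardiomyocyte genes. Median UMIs per cell in Zone II were 6281.5 in members, 6904.5 in fibroblasts and 9718 in endocardial cells, and median mitochondrial shares were 2.80, 2.85 and 5.16%. Cardiomyocyte genes, 20 in the list, summed to 1501 CPM in members against 1566 CPM in fibroblasts, with 66081 CPM in the myocytes of that library. The endothelial list of 25 genes summed to 1688 CPM in members, against 1137 CPM in fibroblasts and 6628 CPM in endocardial cells, and Plvap of this list was near 0 at 2.99 CPM. Epicardial genes, 14 in the list, summed to 22.6 CPM in members and 104 CPM in fibroblasts, and Upk3b and Lrrn4 were at 0 in members. Erythroid genes summed to 3817, 6214, 27670 and 699 CPM in the cells of the rule of Zone II, Zone I, Zone III left and Zone III right, against 3981, 10838, 2080 and 13034 CPM in fibroblasts, and all 49 calls described below held without the cells of over 1% hemoglobin. Scrublet, a doublet caller, marked 12 members. Zone II shared 39 to 49 barcodes with each other library, and no shared barcode met the rule in both.

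The leading genes of the members were chosen by their ratio to the other 4973 cells of Zone II among genes found in at least 25% of members, so the ratios are descriptions. Col9a1 and Col9a3, chains of the cartilage collagen type IX, led with log2 ratios of 4.17 (95% interval 4.04 to 4.31) and 4.09 (3.96 to 4.22), and these intervals cover counting error alone. Col9a3 had a UMI in 66.8% of members, against 7.45% of fibroblasts and 5.80% of macrophages, and Col9a1 in 56.8%, against 8.51% and 1.45%. Next came Matn4, the cartilage matrix protein matrilin 4 (412 CPM in members and 25.9 CPM in the other cells), Fmod, the collagen-binding proteoglycan fibromodulin (424 and 28.5 CPM), Bmper, which binds BMPs (97.4 and 6.89 CPM), and Ptx3, a pentraxin that binds hyaluronan-rich matrix (198 and 14.8 CPM). Cthrc1 reached 771 CPM and 76.0% of members, against 30.9% of fibroblasts and 8.70% of macrophages. Genes of cartilage matrix and of secreted Wnt and BMP regulation thus stood at the head of the list, and the heat map of the 20 genes shows how they ran in the other libraries.

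**Figure D1:**
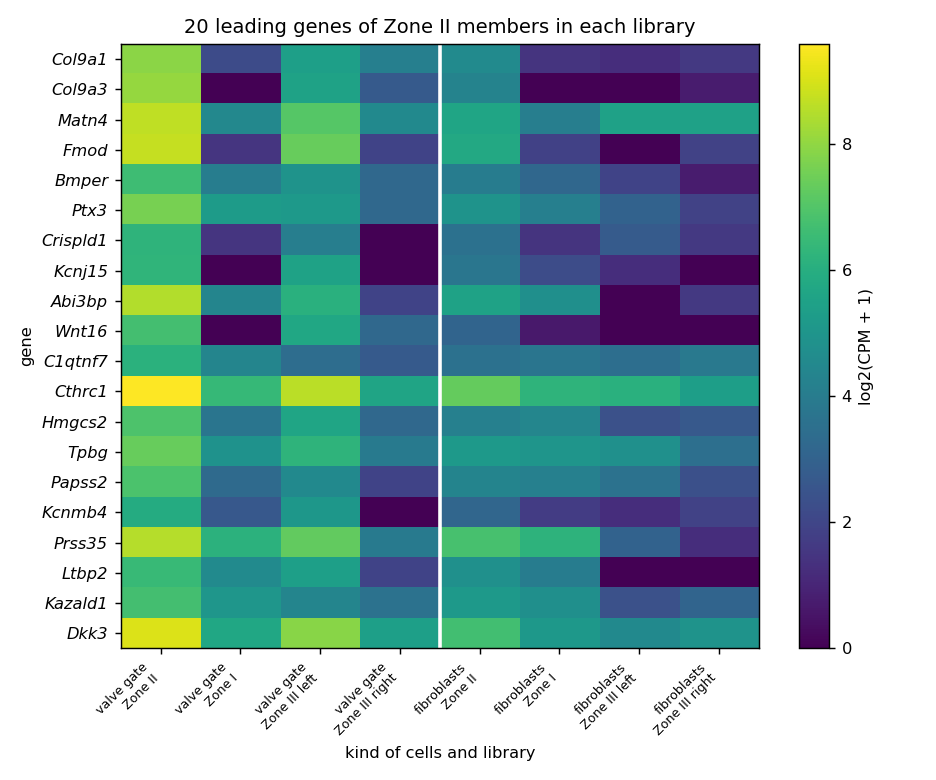
Levels of the 20 genes with the highest ratio to other Zone II cells, as log2 of CPM plus 1 (color), with genes down the side and the cells of the rule (left of the white line) and Tcf21 fibroblasts (right of it) in each library. The Zone II column of the rule is the brightest in all 20 rows, the Zone III left column of the rule comes next in most, and Col9a3 and Wnt16 are at 0 in the cells of the rule in Zone I.

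The comparison with Tcf21 fibroblasts asked which genes set the members apart from Tcf21 fibroblasts of the same libraries that held no Sox9 UMI. In Zone II these were 282 cells, while 994 cells met the fibroblast rule at any Sox9 count. Most Tcf21 fibroblasts of Zone II thus held Sox9 and were left out of the main comparison. UMIs were summed per library and kind of cell, and edgeR's quasi-likelihood test was run with the library as a block on 9014 genes that no rule had read. At an adjusted p of 0.05, 38 genes were higher (0.422% of those counted) and 11 were lower (0.122%) in the cells of the rule, with a median log2 change of -0.001 over all genes. Of the 38, all were higher in Zone II, 26 in Zone I, 37 in Zone III left and 31 in Zone III right, and their median level was 115 CPM in the members against 19.8 CPM in Zone II fibroblasts. Zone I held 9 of the 38 at 0 UMIs. There 3 UMIs equal 5.30 CPM, so that a level below that rests on fewer than 3 UMIs and can be missed at its depth. All 11 genes called lower were lower in each of the 4 libraries.

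Within Zone II, 7133 genes were found in at least 10% of members or fibroblasts. At least 2-fold higher in members were 351 (4.92%), and at least 2-fold lower were 246 (3.45%), with a median log2 ratio of 0.13. These shares are the background for the lists below, which carry no test of their own.

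Members of the cartilage and tendon list stood furthest above fibroblasts. The rule asked for Sox9, a factor of cartilage, and these fibroblasts held none, so this gap can be partly set by the choice of cells. Against fibroblasts of any Sox9 count the log2 changes of Col9a3, Col9a1 and Scx were 2.68, 2.44 and 2.55, still called. In Zone II, 11 of its 14 detected genes were at least 2-fold higher and none was as much lower, with a median log2 ratio of 2.43, and 3 of 12 tested genes were called higher and none lower. Col9a3 had 268, 0, 45.3 and 5.61 CPM in the cells of the rule of Zone II, Zone I, Zone III left and Zone III right, against 18.3, 0, 0 and 0.681 CPM in fibroblasts. Its log2 change was 3.88 ± 0.34 (SE, adjusted p = 0.0005 by edgeR), and without Zone II it was not tested. Zone II was far above every other sum, and in Zone I neither kind of cell had a UMI of it. Col9a1 had 241, 3.54, 42.0 and 16.8 CPM, against 23.0, 1.72, 1.42 and 2.04 CPM in fibroblasts (log2 change 3.17 ± 0.31, adjusted p = 0.00054), and each library was higher in the cells of the rule than in its fibroblasts, though the call was lost without Zone II (2.86). Scx had 127, 1.77, 48.5 and 8.42 CPM, against 21.6, 0.573, 0 and 1.36 CPM (2.72 ± 0.38, adjusted p = 0.005), again higher in each library. In Zone I, however, both Col9a1 and Scx lay below the 5.30 CPM of 3 UMIs in the cells of the rule. Without Zone II, Scx was not tested either. Col9a3 lies on chromosome 2 from 180598102 to 180622192, Col9a1 on chromosome 1 from 24177589 to 24252738 and Scx on chromosome 15 from 76457411 to 76459468.

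Other cartilage genes were high in Zone II and were not called. Matn4 had 412, 21.2, 133 and 22.5 CPM, against 49.4, 16.0, 43.9 and 43.6 CPM in fibroblasts, so that it was higher in 3 libraries and lower in Zone III right. Papss2, which makes the sulfate donor for proteoglycans, had 116 CPM in Zone II members and 19.3 CPM in fibroblasts there, and Cytl1, a secreted protein known from cartilage, had 63.7 and 1.88 CPM. Col2a1, the main cartilage collagen, had 33.3 and 2.35 CPM and a UMI in 13.4% of members, against 1.06% of fibroblasts and 1.45% of macrophages. Hapln1, which links hyaluronan to proteoglycans, had 125, 1.77, 19.4 and 33.7 CPM, against 27.8, 3.44, 0 and 0.681 CPM (log2 change 2.26 ± 0.47, adjusted p = 0.06). These genes thus matched Col9a3 and Col9a1 in Zone II and were uneven or rare in the other libraries.

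Wnt genes held the most calls of the 24 lists, with 5 of 22 tested higher and none lower, and 8 of 17 detected genes at least 2-fold higher in Zone II against 1 that was as much lower. Rspo3, a secreted protein that strengthens Wnt signaling, had 199, 10.6, 71.1 and 22.5 CPM in the cells of the rule, against 19.3, 3.15, 1.42 and 0.681 CPM in fibroblasts. All 4 libraries were higher, with a log2 change of 3.31 ± 0.34 (adjusted p = 0.00065 by edgeR), and the call held with any 1 library left out. The ligand Wnt16 had 106, 0, 51.7 and 8.42 CPM, against 7.53, 0.573, 0 and 0 CPM (3.86 ± 0.48, adjusted p = 0.0025), and was higher in 3 of 4 libraries. The call of Wnt16 was lost with DESeq2 (log2 change 4.43), and without Zone II the gene was not tested. Lef1, a transcription factor of the pathway, had 48.3, 0, 16.2 and 0 CPM, against 2.82, 0, 0 and 0.681 CPM (3.84 ± 0.56, adjusted p = 0.0072), and only Zone II and Zone III left were higher. Secreted modulators were high beside the agonists: Dkk3 had 537, 51.3, 236 and 42.1 CPM, against 101, 33.2, 22.7 and 29.3 CPM (1.81 ± 0.34, adjusted p = 0.033), and Wif1, a Wnt inhibitor, had 58.1 CPM in Zone II members against 8.94 CPM in fibroblasts (2.86 ± 0.49, adjusted p = 0.019). The call of Dkk3 was lost without Zone II (log2 change 1.497) or Zone III left (1.43). Frzb and Nkd2, both Wnt antagonists, had 185 and 29.9 CPM in Zone II members against 78.6 and 4.23 CPM, and were not called. Fzd4, a receptor, had 9.61 against 32.5 CPM. Rspo3 lies on chromosome 10 from 29453106 to 29535867.

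The plot of summed levels by library places the genes called in the text beside each other. Of the 12 genes drawn, 10 are among those called higher and 2, Edn1 and Osr1, among those called lower.

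**Figure D2:**
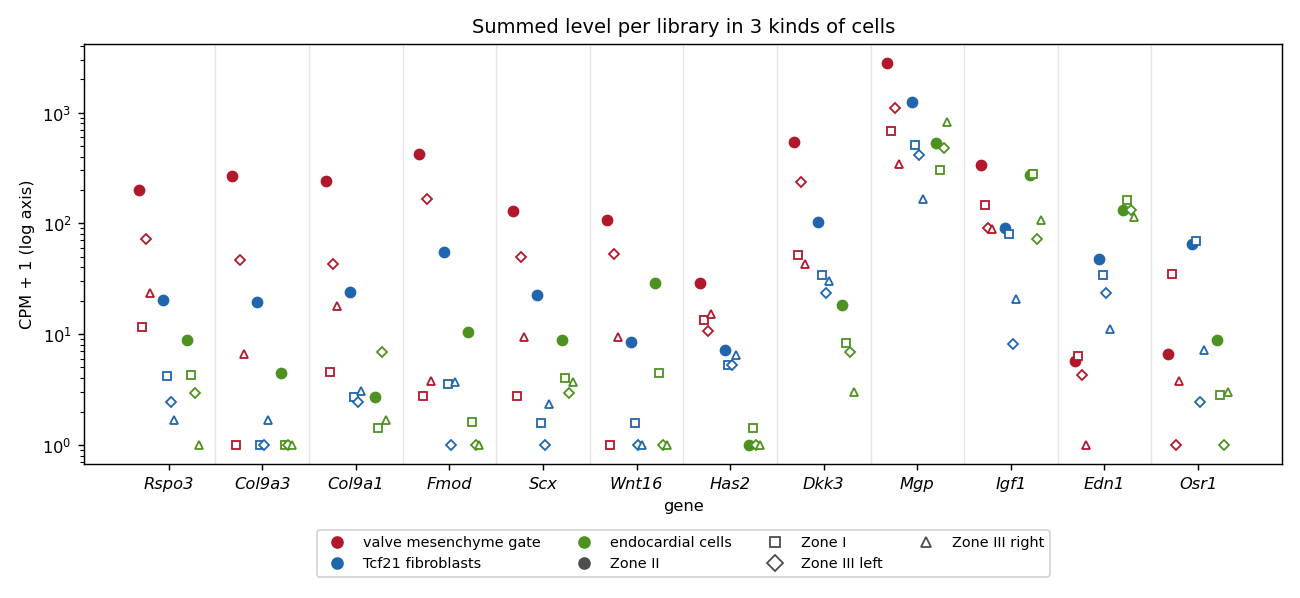
Summed level (CPM plus 1, log axis) of 12 genes, 1 point per library and kind of cell: red, cells of the rule, blue, Tcf21 fibroblasts, green, endocardial cells, with filled circles for Zone II. The red Zone II point is the highest of each of the first 9 genes and of Igf1, and the 4 red points of Edn1 lie below the 4 blue points, between 0 and 5.30 CPM.

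Transcription factors split both ways. Of 31 tested, Scx and Msx1 rose and Osr1 fell, and in Zone II 11 of 27 detected were at least 2-fold higher and 4 as much lower. Msx1, a homeobox factor of the cushions, had 134, 3.54, 19.4 and 11.2 CPM, against 24.5, 4.01, 11.3 and 3.40 CPM in fibroblasts (log2 change 1.81 ± 0.34, adjusted p = 0.033 by edgeR), and was not higher in Zone I. Tbx20, which is needed for valve growth, had 722, 361, 443 and 275 CPM, against 347, 338, 283 and 305 CPM, and Meox1 had 491, 150, 194 and 33.7 CPM, against 143, 80.8, 59.5 and 55.8 CPM, both without a call. Twist1, which keeps cushion mesenchyme undifferentiated, had 62.8 CPM in Zone II members against 30.6 CPM in fibroblasts. Osr1 had 5.56, 33.6, 0 and 2.81 CPM, against 63.5, 68.5, 1.42 and 6.13 CPM (-2.47 ± 0.44, adjusted p = 0.026), lower in each library. Its levels in Zone III left and right lay below the 9.70 and 8.42 CPM that equal 3 UMIs in the cells of the rule there. The call of Osr1 was lost without Zone II (log2 change -1.05) and without Zone III right (-2.51), and that of Msx1 without Zone III right (1.79). Wt1, a factor of the epicardium and its descendants, had 2.35 CPM in Zone II members and 42.8 CPM in fibroblasts, and 44.2 against 61.0 CPM in Zone I, and was not called. Gata4, Gata6, Hand2, Snai1 and Snai2 lay within a log2 ratio of 0.25 to 0.42 of the Zone II fibroblasts.

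Proteoglycans and the enzymes of hyaluronan also split. Has2, the synthase that makes hyaluronan in the cushions, had 27.8, 12.4, 9.70 and 14 CPM, against 6.11, 4.30, 4.25 and 5.45 CPM in fibroblasts, and each library was higher in the cells of the rule (log2 change 1.73 ± 0.33, adjusted p = 0.036 by edgeR). The call of Has2 was lost when any of the other 3 libraries was left out (log2 changes of 1.78 to 1.80) and against fibroblasts of any Sox9 count (0.84), and without Zone II it was not tested. Fmod had 424, 1.77, 165 and 2.81 CPM, against 54.6, 2.58, 0 and 2.72 CPM (2.99 ± 0.51, adjusted p = 0.019), and the difference lay in Zone II and Zone III left. Fmod lies on chromosome 1 from 134037254 to 134048280. These were the 2 calls among 25 tested genes of the list, and none was lower. In Zone II 9 of 24 detected genes were at least 2-fold higher, Vcan (474 against 171 CPM) and Prelp (119 against 35.7 CPM) among them. At least 2-fold lower were Ogn, the proteoglycan osteoglycin (38.5 against 340 CPM), Gpc6 (72.4 against 194 CPM) and the proteases Adamts1, Adamts4 and Adamts5, which cut versican and aggrecan (33.8, 3.63 and 17.3 CPM in members against 71.0, 18.8 and 56.0 CPM in fibroblasts). None of these was called.

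Collagen chains gave 3 calls among 26 tested genes: Col9a3, Col9a1 and Col18a1, a basement membrane chain with 88.9 CPM in Zone II members and 20.2 CPM in fibroblasts there (log2 change 1.45 ± 0.27, adjusted p = 0.032 by edgeR). The call of Col18a1 was lost without Zone II (0.91), without Zone III left (1.45) or right (1.53), and with DESeq2 (1.33). In Zone II 6 of 24 detected chains were at least 2-fold higher and 6 as much lower, so the list had no common direction. The higher chains were the cartilage chains Col9a3, Col9a1 and Col2a1 with Col18a1, Col13a1 and Col12a1. Lower were Col3a1, Col4a1, Col4a2, Col8a1, Col14a1 and Col26a1. Col4a1, of basement membranes, had 125, 423, 388 and 575 CPM, against 390, 407, 465 and 613 CPM in fibroblasts. Its low level was thus found in Zone II, and the log2 change over libraries was -0.51 ± 0.24 (adjusted p = 0.57).

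Elastic fiber and BMP genes leaned higher in Zone II, with 4 of 18 and 6 of 24 detected genes at least 2-fold higher and 1 of each list as much lower, while matricellular genes were even. Fbln5, which organizes elastic fibers, had 956, 31.8, 197 and 2.81 CPM, against 313, 73.3, 7.08 and 8.17 CPM, higher in 2 libraries and lower in 2. Eln, elastin, had 1068 CPM in Zone II members and 1496 CPM in fibroblasts, and Mfap5, a microfibril protein, 19.4 and 176 CPM. No gene of the 21 tested in the elastic list and of the 24 in the matricellular list was called. Among the matricellular genes, 6 of 22 were at least 2-fold higher, led by Cthrc1 (771 against 160 CPM), Crispld1 and Tgfbi, and 6 were as much lower, with Fn1, fibronectin, at 144 against 475 CPM and Tnxb at 5.77 against 74.8 CPM. Of 29 BMP and TGF-beta genes tested, Bmper alone was called, with 97.4, 15.9, 29.1 and 8.42 CPM, against 15.5, 8.31, 2.83 and 0.681 CPM (log2 change 2.21 ± 0.33, adjusted p = 0.0072 by edgeR). Without Zone II its log2 change was 1.81 and the call was lost. The Htra proteases, which act on TGF-beta signaling and matrix, parted in Zone II, with Htra1 at 463 against 65.4 CPM and Htra3 at 25 against 126 CPM, and neither was called.

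**Figure D3:**
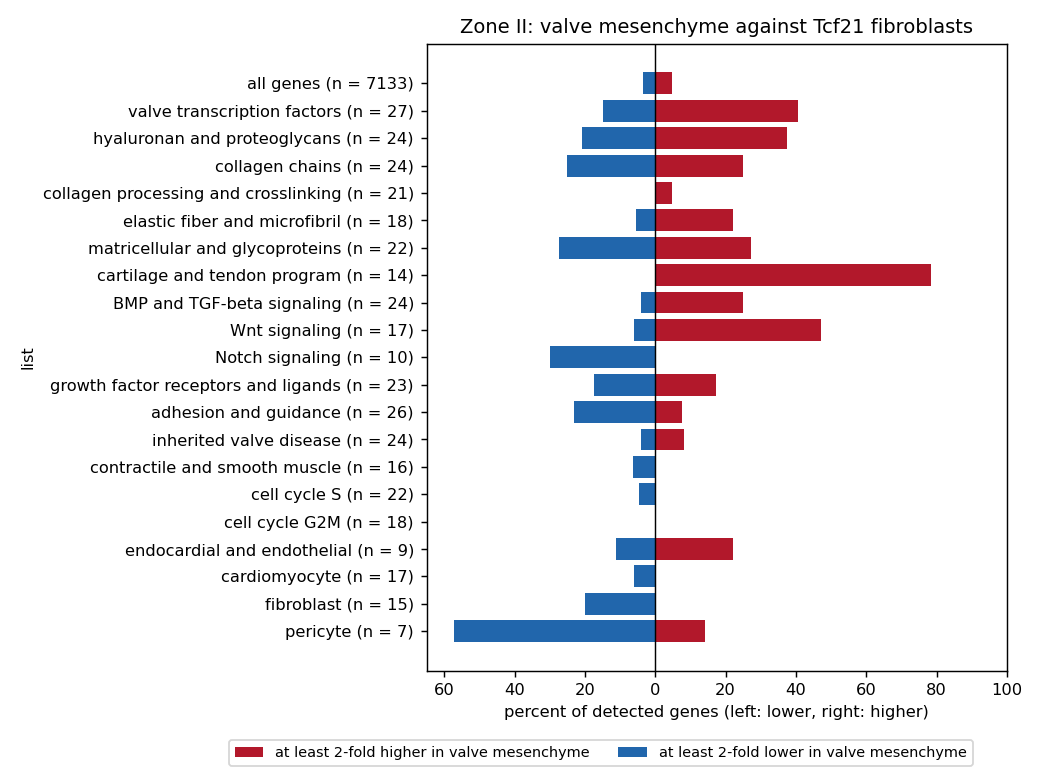
Percent of the genes of each list that were at least 2-fold higher (red, to the right) or lower (blue, to the left) in Zone II members than in Zone II fibroblasts, among genes found in at least 10% of either kind of cell (n beside each name), for lists with at least 7 such genes. Among the lists drawn, red reaches furthest for the cartilage and tendon list (11 of 14 genes) and the Wnt list (8 of 17), blue furthest for the pericyte list (4 of 7), beside 4.92% and 3.45% of all genes.

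Growth factor, Notch, contractile and disease lists held few calls. Igf1 was the 1 gene called of 26 growth factor genes, with 335, 147, 90.5 and 87.0 CPM, against 90.3, 79.9, 7.08 and 19.7 CPM (log2 change 1.74 ± 0.26, adjusted p = 0.0072 by edgeR), a call that was lost without Zone III right (1.64). No Notch gene of 12 was called, and Dlk1 had 236 CPM in Zone II members and 1598 CPM in fibroblasts, but 1047 against 881 CPM in Zone I. Among contractile genes, Actg2, a smooth muscle actin, was the 1 call of 18: 33.5, 46.0, 19.4 and 8.42 CPM, against 78.6, 141, 39.7 and 50.4 CPM (-1.50 ± 0.20, adjusted p = 0.0037), lower in each library and called with any 1 library left out. Against fibroblasts of any Sox9 count its log2 change was -0.69, without a call. None of the 26 tested genes linked to inherited valve disease in people or mice was called. Lmcd1 and Adamts19 were its highest in Zone II, with 152 and 45.3 CPM in members against 41.9 and 15.5 CPM in fibroblasts. Flna, filamin A, had 154 against 174 CPM and Dchs1, a cadherin, 27.6 against 20.7 CPM. The log2 ratios there were -0.18 (-0.36 to 0.01) for Flna and 0.41 (-0.09 to 0.94) for Dchs1, so that a 2-fold difference lay outside both intervals, which cover counting error alone.

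The call held with each library left out in turn for 7 genes: Rspo3, Cd9, Dbi, Rtn1 and Car3, higher, and Edn1 and Actg2, lower. Edn1, the ligand endothelin 1, had 4.70, 5.30, 3.23 and 0 CPM in the cells of the rule, against 46.6, 33.2, 22.7 and 10.2 CPM in fibroblasts. It was lower in each library (log2 change -3.25 ± 0.33, adjusted p = 0.00054 by edgeR). It lies on chromosome 13 from 42301476 to 42307990. Cd9, a tetraspanin, had 483, 30.1, 220 and 61.8 CPM, against 79.0, 21.5, 26.9 and 8.17 CPM (2.24 ± 0.31, adjusted p = 0.0047). Dbi, which binds acyl-CoA, was the most abundant of the 7, with 2656, 276, 996 and 528 CPM, against 410, 161, 288 and 231 CPM (1.62 ± 0.23, adjusted p = 0.005). Rtn1, a reticulon, had 488 against 98.8 CPM in Zone II (1.67 ± 0.21), and Car3, a carbonic anhydrase, 231 against 52.7 CPM (2.86 ± 0.38). The call of Car3 was lost with DESeq2 (log2 change 3.22). Mgp, matrix Gla protein, an inhibitor of calcification, had 2795, 686, 1090 and 340 CPM, against 1235, 504, 414 and 165 CPM (0.99 ± 0.14, adjusted p = 0.0061), and of the 4 libraries left out in turn, Zone III right alone took its call away (0.96). In Zone I too, the 7 genes and Mgp lay on the same side of fibroblasts as in Zone II.

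Among the rest of the 38 were the retinoid genes Crabp1 and Cyp26a1, with 68.2 and 116 CPM in Zone II members against 10.8 and 9.88 CPM in fibroblasts, the lubricin gene Prg4 (29.5 against 2.35 CPM), the water channel Aqp1 (92.1 against 8.0 CPM), the neuropeptide gene Npy (140 against 11.3 CPM) and the desmosome gene Dsp (42.9 against 9.88 CPM). Sall3, a transcription factor, had 30.6, 3.54, 6.47 and 16.8 CPM, against 0.470 CPM, a single UMI, in Zone II fibroblasts and none in the others. The log2 ratio of Sall3 in Zone II was 6.02 with a counting interval of 3.52 to 11.34. Pla2g5, a secreted phospholipase, had 22.0 CPM in Zone II members and no UMI in any fibroblast. The genes called lower besides Edn1, Osr1 and Actg2 were Fhl1, Cfi, Cxcl2, Pla2g12a, G0s2, Fgl2, Pf4 and Moxd1. Among these Cxcl2 and Pf4 were found in 31.9% and 76.8% of macrophages and in 0.446% and 3.72% of members, against 1.06% and 10.6% of fibroblasts. All 12 macrophage genes together summed to 0 to 57.5 CPM in the cells of the rule and to 8.50 to 276 CPM in fibroblasts, with Csf1r and Mrc1 at 0 in Zone II fibroblasts, and the part of macrophage RNA in these calls was not tested.

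These calls lean on few cells outside Zone II. Without Zone II, 25 genes were called, 12 of them among the 49, and without Zone I 80 were, 42 of them among the 49. Without a block for the library no gene passed, and DESeq2 called 25. Without the block 402 of 8118 counted genes had an unadjusted edgeR p under 0.05, against 821 of 9014 with it.

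Endocardial cells, 103 in Zone II and 44 to 429 in the other libraries, were compared to see how the mesenchyme differed from the lining that is known to give rise to much of it. Endothelial cells with both Sox9 and at least 2 Postn UMIs were left out of the endocardial cells. Of 8887 genes counted, 1236 (13.9%) rose and 1358 (15.3%) fell in the cells of the rule by the same edgeR test. Because both rules read endothelial genes, the fall of the endothelial list is partly set by the choice of cells: 22 of its 24 tested genes were lower and none was higher. The lowest p belonged to Mmrn2, a matrix protein of vessels, with 1.07, 1.77, 0 and 0 CPM, against 278, 347, 260 and 399 CPM in endocardial cells (log2 change -8.07 ± 0.32, adjusted p = 8.06e-08). Flt1, a VEGF receptor, had 4.06, 3.54, 6.47 and 11.2 CPM, against 467, 342, 370 and 423 CPM (-6.36 ± 0.28). Ecscr, Plvap and Cd93 fell likewise.

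Matrix genes were mostly higher than in endocardial cells. Among collagen chains 17 of 26 were higher and 5 lower, among genes of collagen processing 17 of 22 and none, and among proteoglycan genes 16 of 23 and 3. Dcn, decorin, had 4799, 2292, 2729 and 1418 CPM, against 232, 127, 210 and 154 CPM in endocardial cells (log2 change 3.92 ± 0.19, adjusted p = 1.26e-07 by edgeR). Mfap4, a microfibril protein, had 1725, 1068, 650 and 107 CPM, against 28.5, 22.8, 1.97 and 2.01 CPM (5.95 ± 0.26), and Col1a1 had 1971, 4094, 1465 and 1704 CPM, against 93.3, 96.2, 35.4 and 25.4 CPM (5.33 ± 0.27). For Dcn, Mfap4 and Col1a1 the lowest sum of the cells of the rule lay above the highest endocardial sum. The share of all counted genes that were separated in this way was not computed. Tagln, an actin-binding protein of smooth muscle, had 570 against 6.91 CPM in Zone II (6.06 ± 0.26), and 12 of 17 contractile genes were higher and none lower.

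Transcription factors of the endocardium and of mesenchyme parted. Of 31 tested, 14 were higher and 7 lower in the cells of the rule. Prrx1, a mesenchymal homeobox factor, had 206, 159, 87.3 and 104 CPM, against 0.864, 2.24, 3.93 and 1.34 CPM (log2 change 6.26 ± 0.33), and Twist1 (3.29 ± 0.35), Snai1 (2.90 ± 0.28) and Snai2 (3.07 ± 0.28), which act in the passage of epithelium to mesenchyme, rose as well. Nfatc1, a factor of the valve endocardium, had 41.7, 15.9, 9.70 and 8.42 CPM, against 100, 71.9, 33.4 and 46.2 CPM (-1.67 ± 0.25), and Foxc1 (-3.97 ± 0.36), Hand2 (-1.73 ± 0.22) and Foxp1 (-1.85 ± 0.18) fell. Signaling lists split, with 11 of 27 BMP and TGF-beta genes higher and 9 lower, 5 of 16 Notch genes higher and 7 lower, and 13 of 22 Wnt genes higher and 3 lower. The receptors Tgfbr2 (-2.27 ± 0.20) and Notch1 (-2.26 ± 0.19) fell. Of the 10 valve markers 8 rose and Cdh11, a cadherin of mesenchyme, fell, with 125, 46.0, 45.3 and 44.9 CPM, against 248, 177, 218 and 287 CPM (-1.78 ± 0.24). Igf1, higher than in fibroblasts, had 335 CPM in Zone II members and 270 CPM in endocardial cells there (-0.11 ± 0.22, adjusted p = 0.74). Thinning every cell to 2500 UMIs left 532 higher and 641 lower of 4448 genes.

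The members differed among themselves. Clustered on their own, they fell into 6 clusters of 158, 145, 134, 81, 81 and 73 cells, with median depths of 7312, 5376, 5180, 7439, 9854 and 6405 UMIs. The clusters were made from the same counts, so that their leading genes are descriptions, and they are called by number. Clusters 1, 2, 3 and 6 carried Scx at 132, 198, 102 and 242 CPM and Col9a3 at 204, 490, 327 and 317 CPM.

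Cluster 1 was led by Tmem100, a target of BMP signaling in endothelium (64.1 CPM against 12.6 CPM in the other members), and by Twist2 (44.7 against 10.6 CPM) and Wnt16 (245 against 58.7 CPM), and it had the most Postn of the 6. Hemoglobin transcripts were also higher there, with Hbb-bt at 689 against 170 CPM, and their part in the clustering was not tested. Cluster 2 had the highest level of several cartilage genes. Matn4 stood at 1273 against 231 CPM, Papss2 at 315 against 74.2 CPM, Col2a1 at 89.6 against 21.5 CPM, and the whole cartilage list summed to 3760 against 1356 CPM. Tgfbi (949 against 169 CPM) and Adamtsl2, a microfibril protein (68.7 against 6.99 CPM), were high in the same cells. Other genes of that list peaked elsewhere, Cytl1 and Hapln1 in cluster 3 (140 and 233 CPM, against 95.7 and 135 CPM in cluster 2) and Scx and Col11a1 in cluster 6 (242 and 308 CPM, against 198 and 106 CPM). Cluster 3 was led by Pnoc, a neuropeptide precursor (267 against 30.4 CPM), Cdo1, an enzyme of cysteine breakdown (292 against 38.3 CPM), and Figf, a VEGF ligand (192 against 37.2 CPM). It held the most Vcan and Hapln1 of the 6, at 795 and 233 CPM. Cluster 6 was led by Wisp2, Penk and Ogn (102, 208 and 187 CPM against 8.89, 20.9 and 19.9 CPM) and by the Wnt modulator Sfrp2 at 6173 against 774 CPM, and it carried the most Fmod, at 1062 CPM. Matrix genes therefore peaked in different clusters: versican in 3, matrilin 4 in 2 and fibromodulin in 6.

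**Figure D4:**
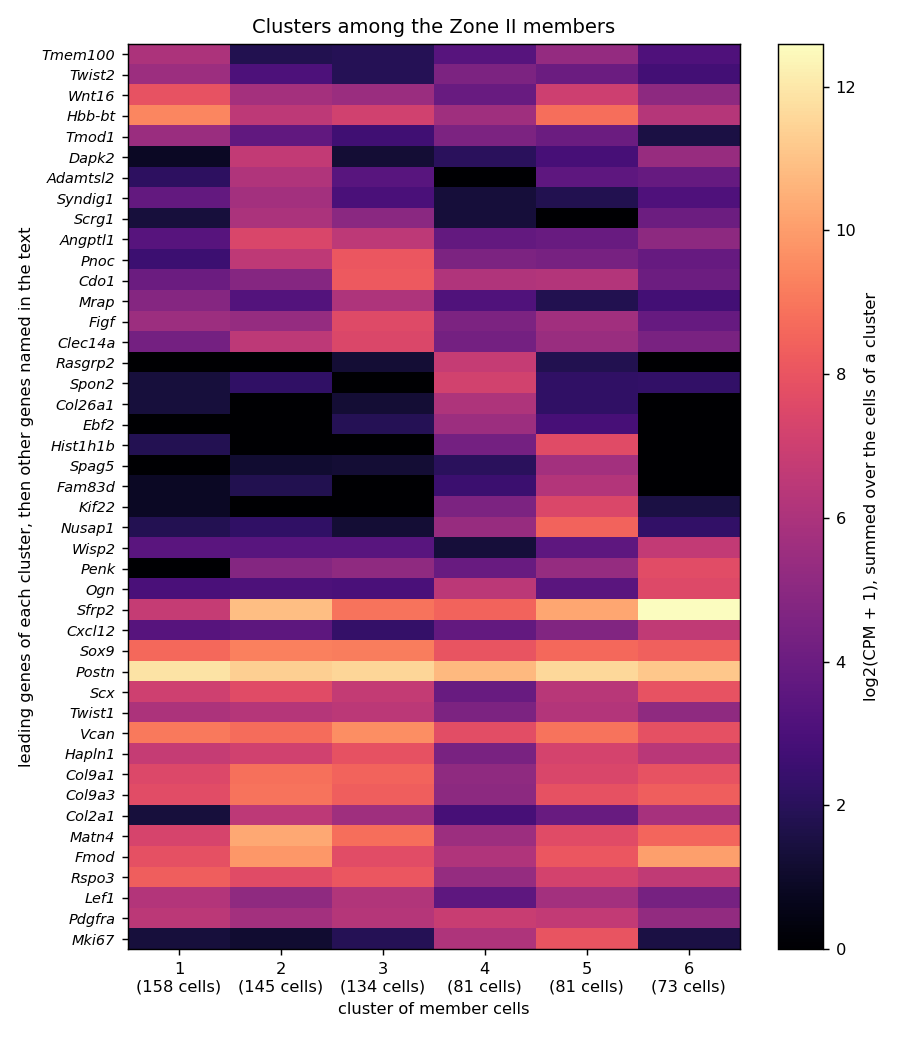
Levels (log2 of CPM plus 1, color) of genes among the leading ones of the 6 clusters and of other genes named in the text, with genes down the side and clusters across. Blocks of high level step down the upper rows from cluster 1 to cluster 6, and cluster 4 is darker than the others for Scx, Col9a1, Col9a3, Hapln1 and Matn4.

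Cluster 4, of 81 cells, went against the label. Its leading genes included Rasgrp2 and Spon2, and it held Abcc9 and Kcnj8, subunits of the pericyte potassium channel, at 109 and 172 CPM against 5.43 and 10.6 CPM in the other members. Abcc9 and Kcnj8 had a UMI in only 27.2% and 21.0% of its cells. Any gene of the pericyte list was found in 65.4% of its cells, against 77.2% in cluster 2. The pericyte list summed to 1350 against 204 CPM, the cardiomyocyte list to 3931 against 1122 CPM and the cartilage list to 368 against 1994 CPM. Scx stood at 14.2 CPM and Col9a3 at 31.6 CPM, nearer to the 21.6 and 18.3 CPM of Zone II fibroblasts than to the other clusters. Dlk1 was at 1218 against 82.3 CPM, so that most of the Dlk1 of the members lay in this cluster. Without these 81 cells, 25 genes were called higher and 6 lower than in fibroblasts, and 31 of the 49 calls were the same genes. The log2 changes of the genes no longer called were about as large, at 3.09 for Fmod, 2.93 for Wif1, 1.47 for Col18a1 and -2.48 for Osr1. This comparison was added after the clusters were seen. Cluster 4 is given no cell type.

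Cluster 5 was the cycling one: 95.1% of its 81 cells held Mki67 or Top2a, genes of dividing cells, and Hist1h1b, Kif22 and Nusap1 led it. Cluster 4 followed with 32.1%, and the other clusters had 2.74 to 8.23%. Among all members 19.0% held either gene, against 24.1% of fibroblasts and 27.2% of endocardial cells in Zone II. After thinning to 2500 UMIs the shares were 14.6% (12.0 to 17.5%), 16.0% (11.9 to 20.8%) and 13.6% (7.63 to 21.8%), and these intervals over cells of 1 library overlap. In Zone III right the thinned shares were 25.6% (13.5 to 41.2%), 27.8% (21.2 to 35.2%) and 11.2% (6.26 to 18.1%). In the same order they were 19.5%, 17.7% and 21.0% in Zone I, and 24.4%, 29.1% and 15.9% in Zone III left. The cells of the rule were thus below endocardial cells in Zone I. By the edgeR test over libraries, 9 of 25 G2M genes were higher in the cells of the rule than in endocardial cells and none was lower. Of all genes counted, 13.9% were higher and 15.3% lower in that test. Against fibroblasts none of the 25 was called.

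Single genes varied unevenly over the members. After thinning, the Fano factor, the variance over the mean of UMIs across cells, had a median of 1.02 over 8881 genes. Hemoglobin (Hbb-bs 210, Hba-a1 176), 7 mitochondrial genes and Malat1 (22.1) led, genes that can come with free RNA or cell damage, whose part was not tested. Sfrp2 (15.5) and Eln (10.7) came next, and both encode secreted proteins. After thinning, Sfrp2 was in 42.9% of members at up to 60 UMIs, and Eln in 70.2% at up to 81 UMIs. As given above, the level of Eln was lower in members than in Zone II fibroblasts. Across the 672 cells, which share 1 library, Spearman's rho of the thinned counts had a median of 0.0114 over 18528 gene pairs. Col1a1 with Col1a2 reached 0.636, Bgn with Mfap4 0.526, Acta2 with Tagln 0.525 and Fbln5 with Sfrp2 0.499, and Lum with Fmod lay lowest at -0.296. Fmod and Lum, both collagen-binding proteoglycans, thus tended to be high in different cells.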

How the data were processed

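UMI counts per gene and cell had been deposited, which the authors made with Cell Ranger from 10x Genomics 3' libraries against mm10; its version and annotation release are not given in the sources used here. No normalization had been applied. Of 27998 genes, 65 duplicated symbols were not summed. Their entries stayed separate in the tests, and values given by symbol are those of the first entry. Cells with at least 500 genes were kept, and doublets were not removed. Zone II held 57766525 UMIs, and sums over the cells of the rule held 309252 to 4680303 UMIs per library. Fibroblasts had Tcf21, no Sox9, fewer than 3 of 7 endothelial genes and fewer than 2 of 4 epicardial genes. Endocardial cells had Npr3, at least 3 endothelial genes, and either no Sox9 or fewer than 2 Postn UMIs. Neither had Sox10 or a muscle score of 1.5 or more. Sums of at least 10 cells per library were tested with edgeR 4.0.16 (R 4.3.3, limma 3.58.1; TMM, filterByExpr, glmQLFit, glmQLFTest). The model had a term for each library, and p-values were adjusted by Benjamini and Hochberg across the whole table (threshold 0.05). The pairing comes from the 4 libraries, each giving both sums, whose deviations correlated at 0.157 to 0.519. Gate genes were not counted. Intervals are exact Poisson or binomial at 95% and cover counting error only. Members were clustered by the Leiden method at a resolution of 0.6 on 1000 variable genes (scanpy 1.11.5, igraph 0.11.9; Python 3.11.15, pandas 2.3.3, numpy 2.4.6, scipy 1.17.1, matplotlib 3.10.9).

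The rule for the members and the 24 gene lists were chosen with earlier results of these data known. The genes named were those of the rule, the 4 highest and 2 lowest of each list against fibroblasts, 10 genes per direction with the lowest p, the 20 leading genes, the 15 of largest Fano factor and list genes covered by a count of 5 or fewer. Others, including cluster genes, were chosen after their values were seen. Alternatives were DESeq2 1.42.0, no filter, no block, leaving out each library, thinned cells, stricter cell filters, doublets or hemoglobin-rich cells left out and other gates. A leading gene of cluster 4 is not reported here. The antibody and imaging data of the study were not analysed here.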

Additional observations from a re-analysis of the deposited data

Results flagged for a closer look

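Barcodes under 500 genes entered no comparison. In Zone II there were 356 of them, with a median of 5049.5 UMIs, and together they held 38 Postn UMIs in 37 barcodes. Sox9 was found in 2 of them, and none held both genes at the levels of the rule. A signal in data outside the comparisons is the reason for giving this value, and its source was not tested.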

How the results depend on the processing

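Against fibroblasts the 49 calls became 25 with DESeq2, 255 with fibroblasts of any Sox9 count, 429 with no filter on low counts, 133 with at least 2 Sox9 UMIs, 31 without cluster 4 of the members (an alternative chosen after seeing the data) and 0 without the replicate block. They ranged over 25 to 80 with 1 library left out (25 without Zone II, 80 without Zone I), and over 43 to 57 under the remaining alternatives, where the 43 of thinned cells held 27 of the 49 and the others at least 44. Against endocardial cells 2594 calls became 1173 in thinned cells, where 4448 genes were counted in place of 8887, 1141 higher and 1343 lower without the block for the library, and 1867 to 2171 with 1 library left out. The 672 members became 471 with at least 2 Sox9 UMIs, 1365 with no exclusion by Tcf21 and 571 when the rule was applied to thinned cells, and lay between 633 and 708 under the other thresholds. The median log2 ratio of the 20 leading genes to other Zone II cells, 3.59, became 3.20 in thinned cells and 3.15 as a mean over cells. None of the 49 genes called against fibroblasts changed direction under the alternatives in which it was tested. Not all were tested in each, with 28 of the 49 tested without the block. The 20 genes of lowest p against endocardial cells kept their direction too, and the other endocardial calls were not checked for it. The cause was not tested where none is named. The 41 to 82 cells of the rule per library outside Zone II limit the test, since 3 UMIs there equal 5.30 to 9.70 CPM, against 0.641 CPM in Zone II.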
